A study of Mus musculus with 12 samples.

Results

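The genes described here encode the factors that hold RNA polymerase II at its promoter-proximal pause and a companion elongation factor. They are *Nelfa*, *Nelfb*, *Nelfcd* and *Nelfe*, which encode the subunits of negative elongation factor (NELF), *Supt4a* and *Supt5*, which encode the DRB sensitivity-inducing factor (DSIF), and *Supt6*. These 7 genes were chosen by name, not by any measured value, among the 27998 genes of the single-cell files and, through their Entrez identifiers, among the 40814 genes of the neurosphere count table. All 7 were found in both and passed the filters on low counts. *Nelfa* (Entrez 24116) lies on chromosome 5, from 33897916 to 33936413 on the minus strand of GRCm38. *Nelfb* (58202) spans 25199712 to 25211489 on the minus strand of chromosome 2, and *Nelfcd* (57314) spans 174415804 to 174427502 on the plus strand of the same chromosome. *Nelfe* (27632) is on chromosome 17, from 34850391 to 34856372 on the plus strand. *Supt4a* (20922) is on chromosome 11, from 87737552 to 87743623 on the plus strand, and *Supt6* (20926) is on the minus strand of the same chromosome, from 78206746 to 78245987. *Supt5* (20924) is on chromosome 7, from 28314891 to 28338746 on the minus strand.

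RNA polymerase II initiates at most promoters and then halts shortly downstream, where DSIF binds the polymerase and recruits NELF to hold it. The kinase P-TEFb, made of CDK9 and a cyclin T, phosphorylates the polymerase, DSIF and NELF. NELF then leaves, while DSIF stays on the polymerase and assists elongation. The protein encoded by *Supt6*, SPT6, is a histone chaperone that travels with the elongating polymerase and belongs to neither complex. The supply of active P-TEFb is limited by the 7SK ribonucleoprotein, whose RNA is protected by LARP7, the protein that the conditional knockout removes. Mutations of *LARP7* cause Alazami syndrome in humans, a disorder of growth and cognition.

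Single cells were measured in 3 droplet libraries of microdissected dentate gyrus at postnatal day 7, 1 per genotype, each from 3 to 4 gyri of littermates combined. P7_WT came from *Larp7*-floxed mice without Cre, which served as wild type, so that all 3 genotypes carry the floxed allele. P7_L7_Nestin is *Larp7* f/f;nestin-Cre, where Cre acts in neural progenitors and their progeny, and P7_L7_Emx1 is *Larp7* f/f;Emx1-Cre, where Cre acts in progenitors of the dorsal forebrain. The genotype entries of these mutant libraries name each other's Cre driver, and the titles were followed. Bulk RNA was measured in neurospheres grown from dentate gyrus of postnatal day 1 and taken at day 2 of differentiation, with 2 wild-type libraries (WT) and 3 knockout libraries (KO, *Larp7* f/f;Emx1-Cre). The labels give that medium as N2B27 with bFGF on Matrigel, while the study's text also describes differentiation with serum and without growth factors. The labels do not say whether replicates came from separate mice, so p-values on them measure only the spread between these samples, which may be technical.

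The neurosphere libraries held 59821311 to 62474602 counts. The cell libraries held 26689878 to 28918491 UMIs (counted molecules) each, and 10997 cells of P7_WT, 6685 of P7_L7_Nestin and 6531 of P7_L7_Emx1 passed the filters, with median UMIs per cell of 1782, 3644 and 3873. Pairs of libraries shared 8 to 16 cell barcodes. Cells were gated on at least 3 marker genes of a class, and 8 classes had at least 50 cells in every library: radial glia-like stem cells, neuronal intermediate progenitor cells (nIPC), neuroblasts, immature granule neurons, pyramidal neurons, astrocytes, oligodendrocyte precursors (OPC) and microglia. Each class was led by 3 to 9 of its own markers among its 10 leading genes and held at most 1 of another class there, for example *Hopx* and *Lpar1* in radial glia-like cells, *Eomes* and *Neurog2* in nIPC and *Calb2* and *Nhlh1* in neuroblasts. Cells were assigned on these same markers, so this describes the gates and does not test the names. The gates, smaller classes included, named 71.4% of the cells in P7_WT, 86.4% in P7_L7_Nestin and 89.6% in P7_L7_Emx1. What this difference contributes to the results was not tested. Summed UMIs of an erythrocyte list made up 136 to 336 per 1000000 UMIs in the classes of P7_WT and 36.4 to 60.4 in those of the mutants, and a dividing-cell list made up 574 per 1000000 UMIs of the P7_WT neuroblasts against 231 and 199 in the mutants. The part of either in the results was not tested. Pyramidal neurons held 850 to 2954 per 1000000 UMIs of the dividing-cell list. They also held 1768 to 2104 of the nIPC markers, beside 2440 to 2813 in nIPC. Their name is only that of the gate, and an alternative clustering of the cells gave no such class.

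In neurospheres, where *Larp7* was largely lost, no pausing factor passed the test between KO and WT. *Larp7* was at 42.8 and 35.0 counts per 1000000 counts of the library (CPM) in WT and at 4.17, 6.35 and 4.39 in KO, 7.82-fold lower (log2 fold change −2.97, SE 0.21, adjusted p = 0.0198). Adjusted p-values here and below are from edgeR's quasi-likelihood test with Benjamini-Hochberg adjustment over all genes of a comparison, called under 0.05. Of 17753 genes tested, 6 were called (0.0338%), and 0 of the 7 members were among them. At an unadjusted p under 0.05 there was 1 member, *Supt6*, and DESeq2, which called 1737 genes, called 0 members. The median log2 fold change was −0.06 over the members and 0.01 over all genes. In bulk RNA, a change in the make-up of a culture and a change of RNA per cell cannot be told apart.

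The NELF genes stayed close between the cultures. *Nelfb*, the core subunit that links NELF-E to the rest of the complex, was at 57.0 and 55.4 CPM in WT and at 59.7, 62.6 and 58.7 in KO. Its groups did not overlap, but the log2 fold change was 0.10 (SE 0.07, adjusted p = 0.459). *Nelfa*, the subunit that contacts the polymerase, was at 35.9 and 31.8 CPM in WT and at 34.9, 39.2 and 37.4 in KO (log2 fold change 0.13, SE 0.10, adjusted p = 0.471). *Nelfcd*, which pairs with *Nelfa* in the complex, was at 80.9 and 73.3 CPM in WT and at 78.3, 72.7 and 72.2 in KO, with overlapping groups (log2 fold change −0.05, SE 0.08, adjusted p = 0.735). *Nelfe*, the subunit with the RNA recognition motif, was at 33.4 and 30.1 CPM in WT and at 30.6, 29.3 and 29.1 in KO, where KO 1 lay above WT 2 (log2 fold change −0.10, SE 0.09, adjusted p = 0.570).

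The DSIF genes and *Supt6* were likewise not called. *Supt5*, the large DSIF subunit and a target of CDK9, was at 198 and 210 CPM in WT and at 190, 190 and 181 in KO. Both WT libraries lay above all KO libraries, and the log2 fold change was −0.12 (SE 0.06, adjusted p = 0.274). *Supt6* was at 254 and 274 CPM in WT (264 ± 13.9, SD, n = 2) and at 232, 236 and 227 in KO (232 ± 4.78, SD, n = 3). It had the lowest p of the members without passing adjustment (log2 fold change −0.19, SE 0.06, adjusted p = 0.155). *Supt4a*, the small zinc-finger subunit of DSIF, was at 23.8 and 29.5 CPM in WT and at 27.3, 26.3 and 23.3 in KO, groups that overlapped (log2 fold change −0.06, SE 0.13, adjusted p = 0.826). Groups that do not overlap were common in this design, since 7555 of the 17753 genes (42.6%) had them, so that 3 such members among 7 is near the background.

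**Figure D1:**
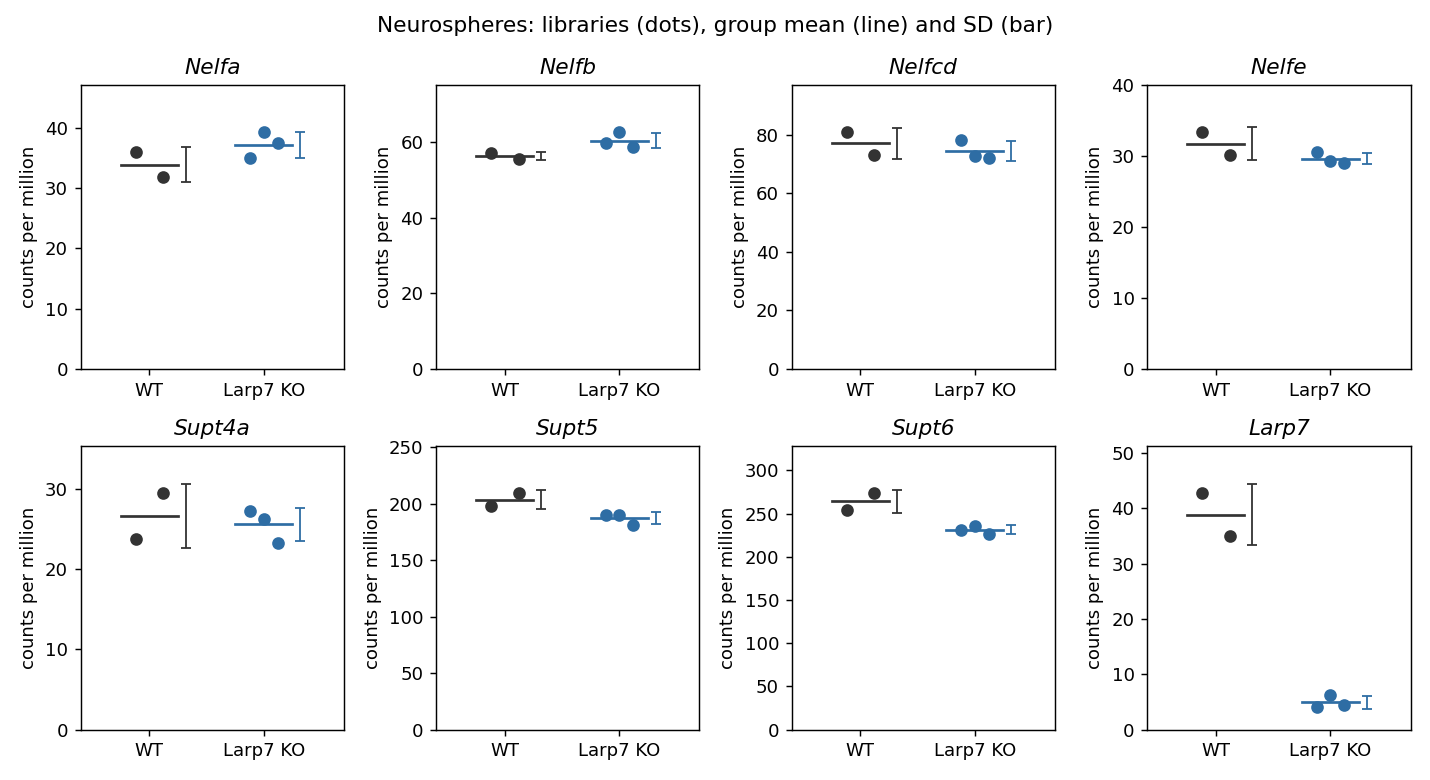
CPM (vertical axis, from 0) of the 7 members and *Larp7* in each neurosphere library (dots) of the wild type (2) and the *Larp7* knockout (3), with the group mean (line) and SD (bar). The groups lie apart for *Larp7*, at means of 38.9 against 4.97, whereas the means of *Supt6*, the member with the lowest p, were 264 and 232.

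Per kilobase of exon, the subunits of a complex were not equally abundant in neurosphere RNA. The mean over the 5 libraries was 9.08 CPM per kilobase for *Nelfa*, 14.7 for *Nelfe*, 17.1 for *Nelfb* and 26.2 for *Nelfcd*. It was 27.7 for *Supt4a*, 33.6 for *Supt5* and 34.5 for *Supt6*. The ranges over libraries of the 4 NELF genes did not overlap each other (8.06 to 9.94, 14.0 to 16.1, 16.2 to 18.2 and 25.0 to 28.1), although those of *Nelfe* and *Nelfb* nearly met. *Supt4a* (24.7 to 31.3) overlapped *Nelfcd*, and *Supt5* (31.5 to 36.4) overlapped *Supt6* (32.0 to 38.6). A near-identical copy, *Supt4b*, held 2 to 10 reads per neurosphere library, and the sources used here do not give how reads shared with it were assigned. On the opposite strand, the gene span of *Supt5*, introns included, overlaps that of an antisense RNA over 3976 bases. The span of *Supt6* overlaps that of *Sdf2* over 242 bases. Shorter overlaps of this kind were 105 bases for *Nelfb*, 60 for *Nelfa* and 10 for *Nelfcd*. Overlap of exons was not measured. The sources do not give how strand was treated in the neurosphere counts either.

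In the P7 dentate gyrus, every member was detected in all 8 classes of all 3 libraries, and none was particular to a class. Levels below are UMIs per 1000000 UMIs of the class, also written CPM, and their intervals are exact 95% Poisson intervals that cover counting error only. With 1 library per genotype, a single level carries no replicate error. Within a library, the highest class of a member stood 1.41 to 2.37 times above its lowest class. When classes were put in order of level, neighbours overlapped in their intervals in 7 of 7 steps for every member and library, except *Supt5* in P7_WT, with 6 of 7.

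The NELF genes differed in where they were highest. *Nelfe* was highest in radial glia-like cells in all 3 libraries, at 76.8 CPM (67.8 to 86.6) in P7_WT, 54.2 (46.9 to 62.2) in P7_L7_Nestin and 59.3 (52.2 to 67.1) in P7_L7_Emx1. It was lowest in neuroblasts in all 3, at 46.1, 29.2 and 34.5. *Nelfcd* was highest in nIPC in all 3, at 50.8, 35.5 and 40.1 CPM, and was at 22.6, 21.9 and 21.2 in microglia, its lowest class in both mutants. *Nelfb* was highest in neuroblasts in all 3 libraries, at 48.7, 47.7 and 52.0 CPM, and lowest in microglia, at 34.5, 32.0 and 29.3. *Nelfa* ranged from 15.1 CPM in astrocytes to 32.2 in OPC in P7_WT, and in all 3 libraries it was higher in nIPC (30.2, 30.1 and 31.1) than in radial glia-like cells (24.4, 21.9 and 21.7) or neuroblasts (25.1, 24.8 and 26.9).

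*Supt4a* was highest in neuroblasts in all 3 libraries, at 163 CPM in P7_WT, 165 in P7_L7_Nestin and 160 in P7_L7_Emx1. Astrocytes and OPC were its lowest classes, with 103, 109 and 93.0 in astrocytes and 110, 105 and 106 in OPC. *Supt5* was lowest in astrocytes in all 3, at 40.6, 55.0 and 44.7 CPM, and was at 81.5, 76.5 and 76.4 in OPC. In immature granule neurons *Supt5* varied between libraries, at 70.4, 105 and 54.3 CPM, on 23 to 77 UMIs. *Supt6* was the flattest member in P7_WT, from 59.4 CPM in nIPC to 83.6 in OPC.

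**Figure D2:**
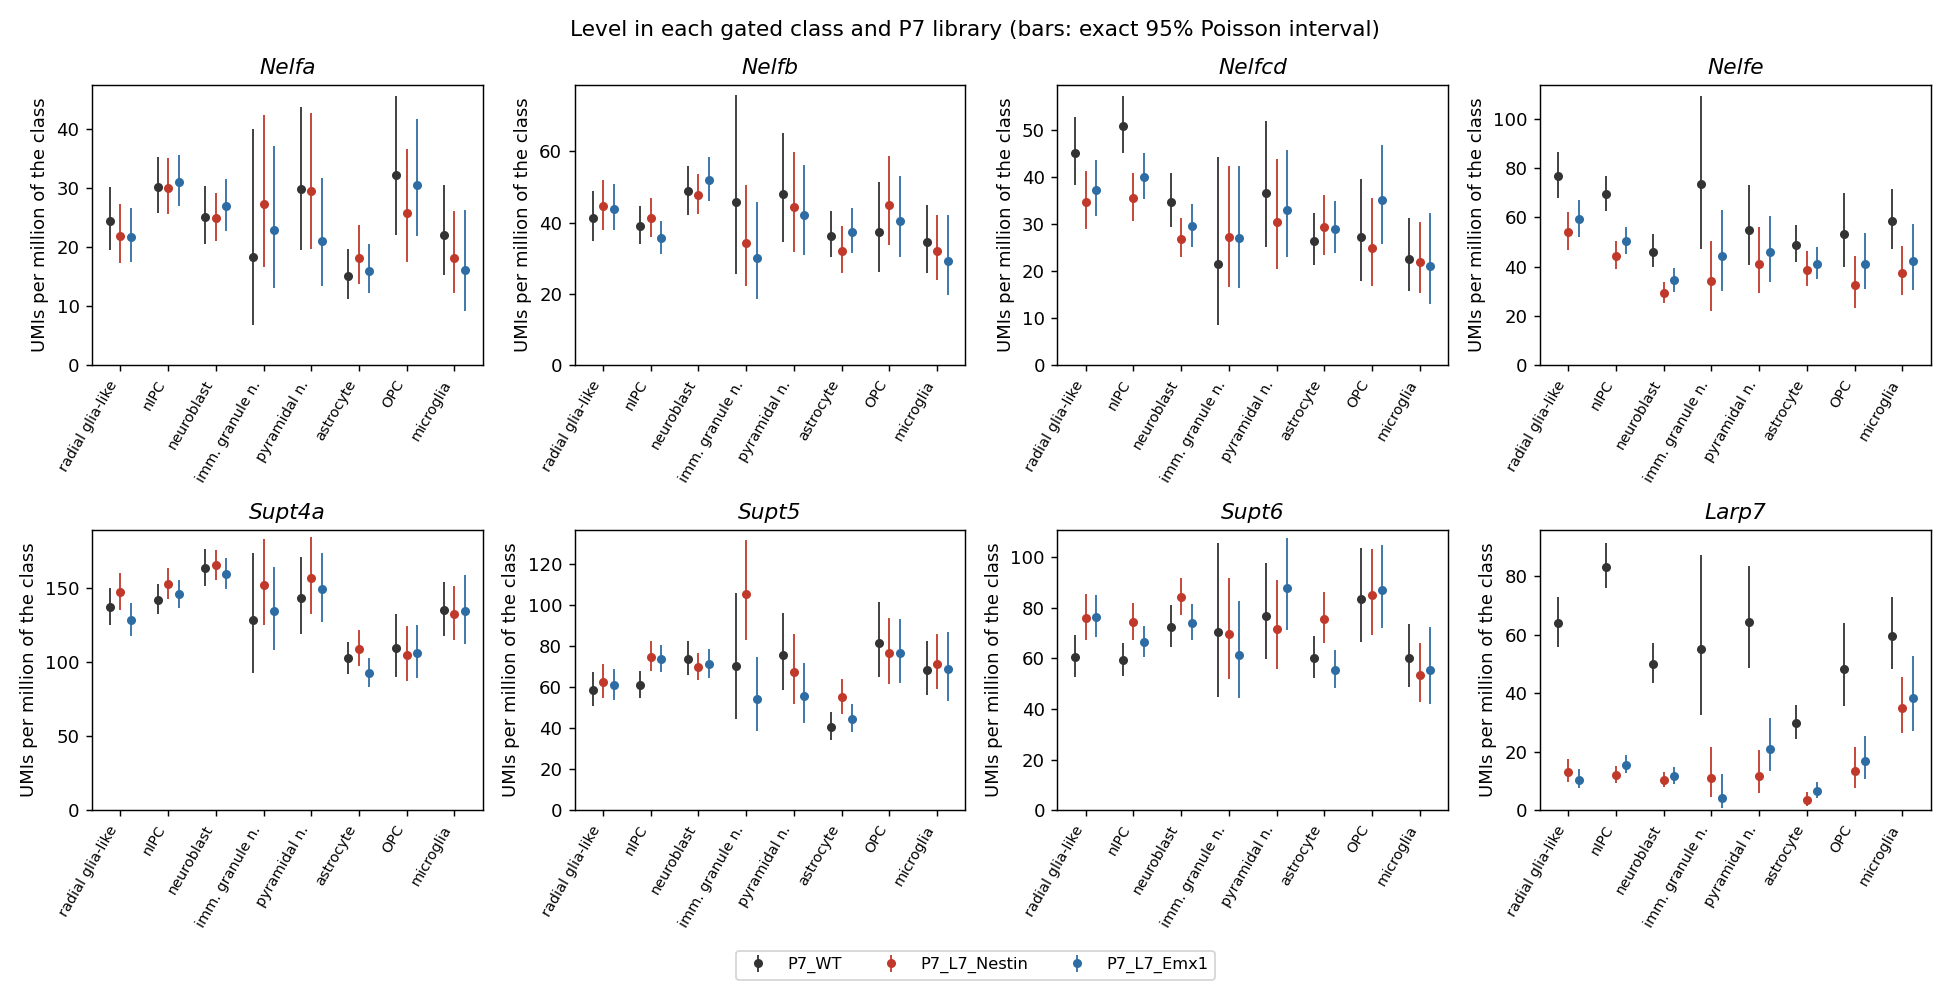
UMIs per 1000000 UMIs of the class (vertical axis, from 0) of the 7 members and *Larp7* in 8 gated classes of the 3 P7 libraries, with bars for exact 95% Poisson intervals. *Nelfe* sits lowest in neuroblasts and *Supt4a* highest there in each library, and the *Nelfe* points of both mutants lie under those of P7_WT in all 8 classes.

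To ask how the factors change along the granule lineage, UMIs were summed per class and library and neighbouring classes were compared within libraries. The 3 libraries are 3 genotypes, so these tests ask what the genotypes share. With library as a covariate, their p-values measure the spread left after class and library, over all classes in the fit. Neuroblasts are the offspring of nIPC, and between these classes the NELF subunits moved in different directions. *Nelfe* fell by 0.59 on the log2 scale (SE 0.09, adjusted p = 1.24e-06), with −0.63 in P7_WT, −0.59 in P7_L7_Nestin and −0.56 in P7_L7_Emx1. *Nelfcd* fell by 0.48 (SE 0.11, adjusted p = 0.000411), with −0.58, −0.38 and −0.45. Each library showed both falls, and they were of like size. The nIPC sums here join dividing and non-dividing cells, which are set apart below.

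*Nelfb* rose from nIPC to neuroblasts, with a log2 fold change of 0.36 (SE 0.09, adjusted p = 0.00194) and values of 0.29, 0.23 and 0.54 in P7_WT, P7_L7_Nestin and P7_L7_Emx1. It was not called without P7_L7_Emx1 (log2 fold change 0.26, adjusted p = 0.192, range over alternatives 5.59e-05 to 0.192). *Nelfa* fell by 0.26 (SE 0.10, adjusted p = 0.0476), a call that was lost without any 1 of the 3 libraries (adjusted p from 0.161 to 0.246). The DSIF genes and *Supt6* were not called, with 0.14 for *Supt4a* (adjusted p = 0.0939), 0.03 for *Supt5* (0.870) and 0.20 for *Supt6* (0.0664). In all, 4 of the 7 members were called, beside 42.8% of the 12662 genes tested, so that the share of members called is near the background. The median log2 fold change was 0.03 over the members and 0.01 over all genes.

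Within a class, dividing cells were set against non-dividing cells, a split that the neuroblast comparison does not make. A cell counted as dividing with at least 4 of 14 genes of a list that holds no member, and as non-dividing with at most 1. In nIPC, *Nelfe* was at 79.8 CPM in dividing cells against 52.7 in non-dividing cells of P7_WT, 57.3 against 36.3 in P7_L7_Nestin and 61.3 against 39.4 in P7_L7_Emx1. Dividing cells were higher in each library (log2 fold change 0.71, SE 0.10, adjusted p = 1.92e-07). *Nelfcd* was at 59.0 against 41.7 CPM, 43.4 against 29.3 and 46.9 against 33.1 in the same order. It too was higher in each library (log2 fold change 0.61, SE 0.13, adjusted p = 0.000147). Neuroblasts held *Nelfe* at 46.1, 29.2 and 34.5 CPM and *Nelfcd* at 34.7, 26.9 and 29.5. Nearer to these were the non-dividing nIPC than nIPC as a whole. The latter held *Nelfe* at 69.6, 44.3 and 50.4 CPM and *Nelfcd* at 50.8, 35.5 and 40.1. Non-dividing nIPC were not tested against neuroblasts, and the part of division in the falls from nIPC to neuroblasts was not tested.

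*Supt6* went the other way in nIPC, at 57.6 CPM in dividing against 62.6 in non-dividing cells of P7_WT, 53.5 against 90.6 in P7_L7_Nestin and 55.1 against 77.3 in P7_L7_Emx1. It fell by 0.39 on the log2 scale (SE 0.11, adjusted p = 0.00628), and the gap was smallest in P7_WT. Without P7_L7_Nestin its adjusted p was 0.253 and without P7_L7_Emx1 0.106 (range over alternatives 0.000151 to 0.253). *Nelfa* and *Supt5* were close to 0 (−0.01 and 0.01, adjusted p = 0.968 and 0.961), and *Nelfb* and *Supt4a* had −0.14 and −0.16 (adjusted p = 0.434 and 0.0990). Of the 7 members, 3 were called, beside 39.1% of 12435 genes. The medians were −0.01 over the members and −0.04 over all genes.

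Radial glia-like cells gave the same direction for *Nelfe*. Its level was 106 CPM in dividing against 62.9 in non-dividing cells of P7_WT, 67.5 against 48.5 in P7_L7_Nestin and 81.6 against 50.1 in P7_L7_Emx1 (log2 fold change 0.62, SE 0.11, adjusted p = 1.51e-05). *Nelfcd* was at 47.6 against 44.9 CPM, 47.9 against 28.1 and 41.2 against 35.8, which was not called (log2 fold change 0.28, SE 0.16, adjusted p = 0.172). *Supt6* fell by 0.47 (SE 0.14, adjusted p = 0.00705) and *Supt4a* by 0.26 (SE 0.09, adjusted p = 0.0247). Both of these calls were lost without P7_L7_Nestin (adjusted p = 0.0571 and 0.216) and without P7_L7_Emx1 (0.0731 and 0.0763), within ranges over alternatives of 0.00311 to 0.602 and 0.0247 to 0.858. *Nelfa* had a log2 fold change of 0.46 (adjusted p = 0.0530), *Nelfb* of −0.36 (0.0763) and *Supt5* of 0.21 (0.281). Of the 7 members, 3 were called, beside 34.9% of all genes tested, with medians of 0.21 and −0.14.

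Depth moved with this split. Dividing nIPC held a median of 4712 to 6218 UMIs per cell in the 3 libraries and non-dividing nIPC 3250 to 3838, and in radial glia-like cells the medians were 4449 to 5905 against 2897 to 3608. With each cell thinned to 1500 UMIs, *Nelfe* and *Nelfcd* in nIPC and *Nelfe* in radial glia-like cells were still called. Classes and the dividing split were taken from the full counts, and cells under 1500 UMIs were left out. Thinning therefore cannot address the part of depth in which cells counted as dividing. The calls of *Nelfe* and *Nelfcd* in nIPC and of *Nelfe* in radial glia-like cells were made under each of the 10 alternatives run. So were those of *Nelfe* and *Nelfcd* from nIPC to neuroblasts, with adjusted p of at most 0.0486 throughout.

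**Figure D3:**
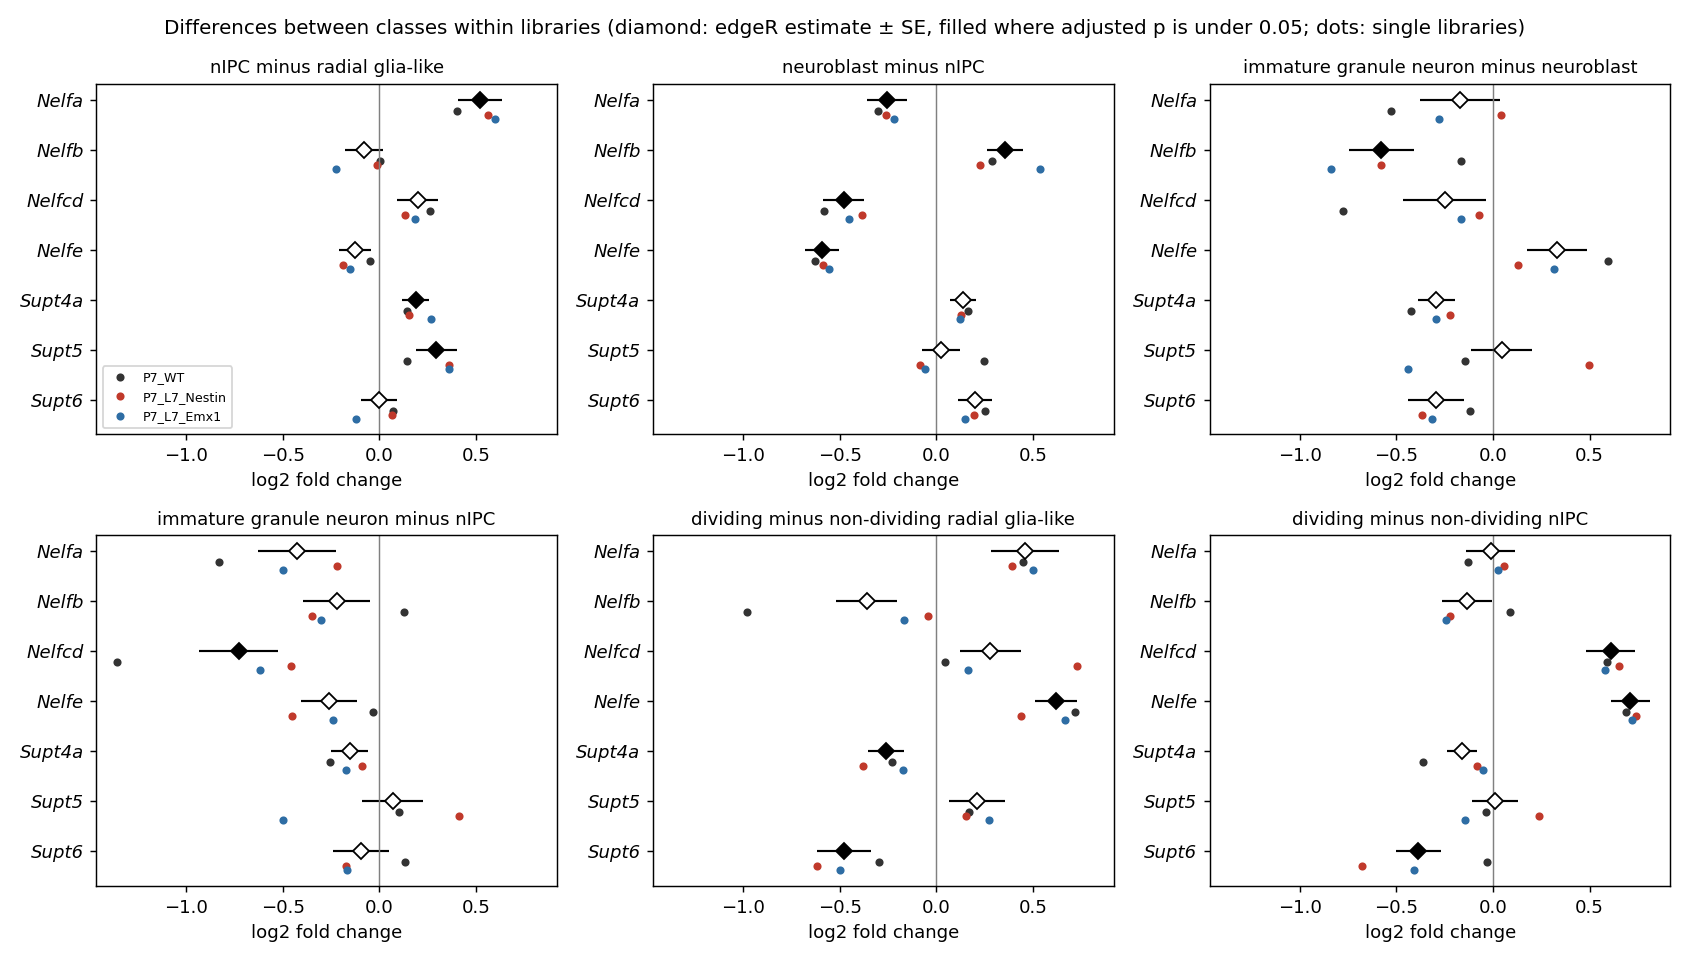
Log2 fold change (horizontal axes) of the 7 members for 6 contrasts between classes, with the edgeR estimate ± SE (diamond, filled where the adjusted p is under 0.05) and the value of each library (dots). *Nelfe* and *Nelfcd* lie left of 0 from nIPC to neuroblast and right of 0 in dividing nIPC in all 3 libraries.

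From radial glia-like cells to nIPC, the first step of the lineage, 3 members rose and none fell, beside 60.9% of all genes called. *Nelfa* rose by 0.52 on the log2 scale (SE 0.11, adjusted p = 0.000207), with 0.40, 0.56 and 0.60 in P7_WT, P7_L7_Nestin and P7_L7_Emx1. It was called under all alternatives but thinning (0.41, adjusted p = 0.0702, range over alternatives 0.000207 to 0.0702). *Supt5* rose by 0.29 (SE 0.11, adjusted p = 0.0171) and *Supt4a* by 0.19 (SE 0.07, adjusted p = 0.0195), so that both DSIF genes were called, but neither was without P7_L7_Nestin (0.106 and 0.107) or without P7_L7_Emx1 (0.224 and 0.428). *Nelfe* (−0.13, adjusted p = 0.199), *Nelfcd* (0.20, 0.110), *Nelfb* (−0.08, 0.492) and *Supt6* (−0.00, 0.987) were not called. The median was 0.19 over the members and 0.07 over all genes.

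Immature granule neurons were few, with 80, 160 and 133 cells in P7_WT, P7_L7_Nestin and P7_L7_Emx1, and their sums also held 902 to 1615 CPM of the dividing list, whose part in the results was not tested. Against neuroblasts, 1 member was called, beside 5.52% of all genes. It was *Nelfb*, which fell by 0.58 (SE 0.17, adjusted p = 0.0372), with −0.16, −0.58 and −0.84. Its call was lost without P7_L7_Nestin (0.203) and without P7_L7_Emx1 (0.428). Against nIPC, 1 member was called, beside 13.4% of all genes. It was *Nelfcd*, which fell by 0.73 (SE 0.20, adjusted p = 0.0144) on 7, 20 and 19 UMIs, and it was not called without P7_WT (0.134) or without P7_L7_Emx1 (0.0962). The medians over the members were −0.25 and −0.22, and −0.02 over all genes in both contrasts.

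The other genes of transcription elongation were followed through a list of 60: P-TEFb and 7SK, the super elongation complex, PAF1, the FACT group with TFIIS and elongin, kinases and phosphatases of the polymerase tail, polymerase subunits, and pause release and termination factors. From nIPC to neuroblasts, 2 of 57 measured genes rose and 19 fell, beside 21.3% and 21.4% of all genes, with a median of −0.12 against 0.01. Polymerase II subunits made up 9 of those that fell, out of 13, and the FACT group 4, out of 8. The 2 that rose, named after their values were seen, were *Aff4*, a scaffold of the super elongation complex (log2 fold change 0.32, adjusted p = 0.000854), and *Hexim2*, a P-TEFb inhibitor (0.49, adjusted p = 0.0486).

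In dividing against non-dividing nIPC, 19 of 56 rose and 6 fell, beside 18.8% and 20.2% of all genes, with a median of 0.16 against −0.04. Of the polymerase subunits 7 of 13 rose and of the FACT group 6 of 8. In radial glia-like cells, 13 rose and 4 fell, beside 14.0% and 20.8%, with a median of 0.15 against −0.14. *Ssrp1* and *Supt16*, the histone chaperone FACT, are named after their values were seen, since both were called in the same direction as *Nelfe* from nIPC to neuroblasts and in dividing nIPC. From radial glia-like cells to nIPC both were called higher, where *Nelfe* was not called. *Ssrp1* fell by 0.75 from nIPC to neuroblasts (adjusted p = 1.12e-10) and rose by 1.05 in dividing nIPC (adjusted p = 5.09e-15). *Supt16* fell by 0.68 (adjusted p = 4.88e-08) and rose by 0.82 (adjusted p = 3.16e-09). *Cdk9*, the kinase of P-TEFb, was called in none of the 6 contrasts.

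From radial glia-like cells to nIPC, 27 of the 57 rose and 4 fell, beside 33.3% and 27.6% of all genes, with a median of 0.24 against 0.07. From nIPC to immature granule neurons 0 rose and 7 fell, beside 6.42% and 7.01%, and from neuroblasts to immature granule neurons 0 were called by edgeR, the tool run there, with 4 at an unadjusted p under 0.05. In neurospheres 59 of the 60 were measured, and *Larp7* alone was called by edgeR. At an unadjusted p under 0.05 there were 15, and the share of all genes at that limit is not given here. *Hexim1*, which the study's text reports as moderately higher in *Larp7* knockout cells, was also higher here. It was at 69.9 and 85.2 CPM in WT and at 136, 130 and 123 in KO (log2 fold change 0.74). Adjustment over all genes left it above the limit (adjusted p = 0.0857), in a fit that called few genes. The study used a t test for neurospheres, an unlike threshold, and also drew on hippocampus of postnatal day 14. DESeq2 called 7 of the list, 4 of which rose, beside 1737 genes called among the 17753 that passed the same filter.

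*Larp7* itself set the mutant P7 libraries apart from P7_WT, though not one Cre from the other. In nIPC it was at 83.2 CPM in P7_WT, 12.0 in P7_L7_Nestin and 15.5 in P7_L7_Emx1. Outside microglia, a lineage where neither Cre is meant to act, the mutant level was 0.0778 to 0.348 of that in P7_WT, while in microglia it was 0.589 and 0.644.

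Between genotypes, *Nelfe* was the member whose interval excluded 1 in the most classes. Its level in P7_L7_Nestin over P7_WT was 0.705 (exact conditional 95% interval 0.584 to 0.851) in radial glia-like cells, 0.637 (0.540 to 0.750) in nIPC and 0.634 (0.514 to 0.780) in neuroblasts. In P7_L7_Emx1 the ratios were 0.772 (0.647 to 0.921), 0.725 (0.624 to 0.842) and 0.748 (0.610 to 0.918). The ratio was under 1 in all 8 classes for both mutants before cells were thinned to equal depth, and its interval lay under 1 in 6 classes for P7_L7_Nestin and in 3 for P7_L7_Emx1. Both sets of ratios share the P7_WT library, and with 1 library per genotype there is no test of genotype.

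In microglia the ratios of *Nelfe* were 0.644 (0.458 to 0.901) in P7_L7_Nestin and 0.727 (0.492 to 1.06) in P7_L7_Emx1, the latter with an interval that includes 1. Depth and the erythrocyte list also moved with genotype, as given above. Thinning to 1500 UMIs also dropped the cells below that depth. These were 4785 of 10997 cells in P7_WT, 597 of 6685 in P7_L7_Nestin and 439 of 6531 in P7_L7_Emx1. Thinned ratios therefore mix equal depth with the loss of shallow cells, mostly of P7_WT. With cells thinned, the ratios of P7_L7_Nestin and P7_L7_Emx1 were 0.799 and 0.892 in nIPC, 0.831 and 0.905 in radial glia-like cells and 0.819 and 0.922 in astrocytes, nearer to 1 than before. In neuroblasts they were 0.629 and 0.836. Microglia had 0.468 and 0.823, immature granule neurons 0.268 and 0.526, OPC 0.524 and 1.06 and pyramidal neurons 1.16 and 0.740, so that thinning moved some of the ratios away from 1 and turned 1 of 8 classes above 1 in each mutant. In neurospheres the log2 fold change of *Nelfe* was −0.10, within the spread between cultures. The part of depth, of the erythrocyte list and of *Larp7* in the difference was not tested.

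*Nelfcd* was lower in the nIPC of both mutants, at 0.699 (0.579 to 0.843) and 0.789 (0.665 to 0.937) of P7_WT. *Supt5* was higher in them, at 1.23 (1.06 to 1.42) and 1.21 (1.05 to 1.40). *Supt6* was higher in the radial glia-like cells of both, at 1.26 (1.05 to 1.51) and 1.26 (1.06 to 1.51), while in neurospheres it was lower in KO without passing the test. In P7_L7_Nestin alone, the interval also lay under 1 for *Nelfcd* in radial glia-like cells (0.769) and neuroblasts (0.775). It also lay above 1 there for *Supt5* in astrocytes (1.35) and for *Supt6* in nIPC (1.25), neuroblasts (1.16) and astrocytes (1.25). *Nelfa*, *Nelfb* and *Supt4a* had no class in which the interval of either mutant excluded 1.

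At a size of at least 1.5-fold either way, 0 of 7 members passed in radial glia-like cells of P7_L7_Nestin, beside 10.7% of genes with at least 100 UMIs, and 1, *Nelfe*, in its nIPC (14.6%), neuroblasts (19.0%), microglia (18.3%), immature granule neurons (15.3%) and OPC (14.9%). None passed in its pyramidal neurons (14.7%) or astrocytes (8.61%). In P7_L7_Emx1, 0 of 7 passed in radial glia-like cells (5.8% of genes), nIPC (7.29%), neuroblasts (11.2%), microglia (10.3%), pyramidal neurons (9.29%), astrocytes (4.75%) and OPC (5.37%). In its immature granule neurons (10.0%) 2 passed, *Nelfe* at 0.603 (0.343 to 1.07) and *Nelfb* at 0.654 (0.321 to 1.36), both with intervals that include 1. A count of 1 in 7 is near the background of the classes of P7_L7_Nestin. In immature granule neurons, pyramidal neurons, OPC and microglia some members held too few UMIs to be among the genes of the background. The median log2 ratio in nIPC of P7_L7_Nestin was 0.08 over the members and 0.03 over all genes.

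**Figure D4:**
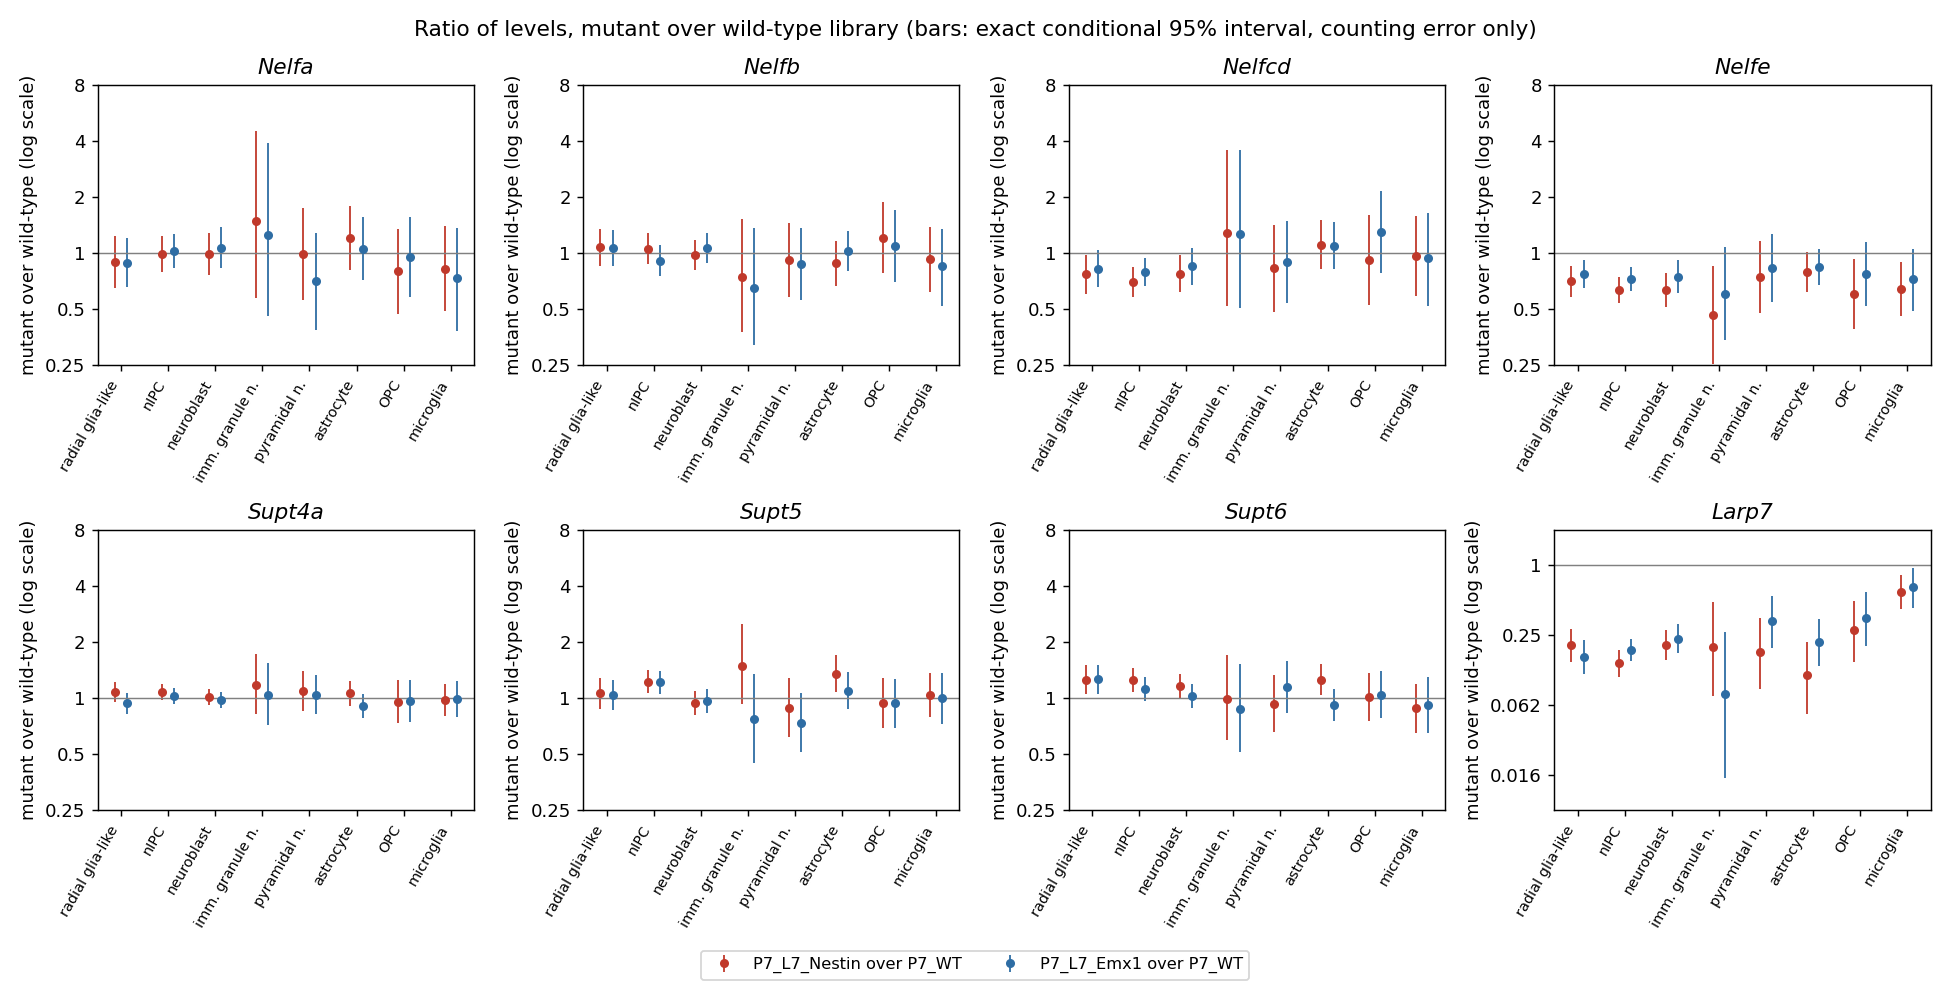
Level in each mutant P7 library over that in P7_WT (vertical axes, log scale) for the 7 members and *Larp7* in 8 classes, with bars for exact conditional 95% intervals, which cover counting error only. With all UMIs of a cell, *Nelfe* lies under 1 in all 8 classes for both mutants, whereas *Nelfa*, *Nelfb* and *Supt4a* have intervals that include 1 throughout.

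Across the 24 sums of class and library, the members did not move as one. Pearson's r of log2 CPM between pairs ran from −0.476 for *Nelfe* and *Supt6* to 0.556 for *Nelfa* and *Supt5*, with 0.396 for *Nelfcd* and *Nelfe* and 0.472 for the DSIF partners *Supt4a* and *Supt5*. The sums share 3 libraries and their depth, so these values are descriptions. Among 8056 genes with at least 1000 UMIs, the pattern most like that of *Nelfe* was shown by *Stub1* (r = 0.925), *Rnaseh2c* (0.912) and *Mrpl38* (0.903), which kept r of 0.844, 0.858 and 0.792 once library means were removed. *Cetn3* (0.813), *Gtf2h4* (0.804) and *Ccdc77* (0.772) were most like *Nelfcd*.

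For *Nelfa* the nearest were *Dynlt1a* (0.857), *Sf3a2* (0.836) and *Med10* (0.819), and for *Nelfb* they were *Ap1m1* (0.683), *Nprl2* (0.635) and *Ttc33* (0.613). *Ypel3* (0.897), *Ier5* (0.875) and *Bcl2l1* (0.872) were nearest to *Supt4a*, and *Copa* (0.823), *Ep400* (0.767) and *Ivns1abp* (0.756) to *Supt5*. *Supt6* had no close neighbour, with *Traf6* at 0.625, *Dcaf7* at 0.613 and *Ralgps1* at 0.607. No member was among the 3 genes nearest to another member.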

How the data were processed

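For the cells, the authors deposited raw UMI counts from Cell Ranger, without normalization. For the neurospheres they deposited raw read counts of genes, from reads aligned with Minimap2, and featureCounts is named in the submitters' processing notes. Of the columns of that table, 5 match no sample and were not used. CPM levels and ratios were computed here from those counts. A cell was kept with over 500 genes detected and mitochondrial UMIs under 15%. Classes were gated on at least 3 markers of a list, a limit set with the data at hand. Doublets were kept. Neurospheres and class sums were fitted with edgeR 4.0.16 (TMM, filterByExpr, glmQLFTest, R 4.3.3), the class sums with library as a covariate, and DESeq2 1.42.0 was an alternative for neurospheres. The dividing contrasts come from a further fit with radial glia-like cells and nIPC split. Scripts were tested on simulated data. The genes named are the 7 members, *Larp7*, genes of the elongation list called in neurospheres (*Larp7* alone) and the 3 genes nearest to each member. Other list genes were named after their values were seen. Members and lists were chosen with earlier results of these data known. Gene positions and exon lengths are from GENCODE M21 on GRCm38, the build named mm10 in the labels. ATAC-seq, CUT&Tag and cells of postnatal day 14 were not analysed here.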

Additional observations from a re-analysis of the deposited data

How the results depend on the processing

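One library per genotype, no replicate of any single-cell group and 2 WT neurosphere libraries limit what could be tested. In neurospheres, where WT 2 lay apart from the other libraries, 0 members were called under all alternatives, while the 6 genes called became 1737 with DESeq2, 3 with no filter on low counts and 0 to 1905 on leaving out each library (1905 without WT 1). Same-numbered libraries did not deviate together (correlations −0.00533 and 0.0934), so the numbers were not taken as pairs. With a replicate block, 0 genes were called and *Supt4a* had a log2 fold change of 0.014. On leaving out libraries, *Supt4a* ranged from −0.20 to 0.11 and *Nelfcd* from −0.12 to 0.022.

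Without the library term, the members called from radial glia-like cells to nIPC went from 3 to 1 and those in immature granule neurons against neuroblasts from 1 to 0. The genes called became 3373 (of 5415) from nIPC to neuroblasts, 323 (of 699) in immature granule neurons against neuroblasts and 919 (of 1701) against nIPC, and *Supt6* had 0.00090 from radial glia-like cells to nIPC. With cells thinned to 1500 UMIs these genes called became 3202, 128 and 525, those of dividing nIPC 2911 (of 4857) and of dividing radial glia-like cells 2174 (of 4336), and the members called became 1 from radial glia-like cells to nIPC, 0 in both contrasts of immature granule neurons and 1 in dividing radial glia-like cells. Thinning also gave *Nelfb* 0.022 from radial glia-like cells to nIPC and *Supt5* −0.018 in immature granule neurons against neuroblasts. In that contrast, removing doublets left 211 genes and 0 members, library totals alone 0 members, and no filter 1163 genes and 2 members with *Supt5* at −0.060. Classes from clusters held no immature granule or pyramidal neurons, so that the contrasts of immature granule neurons were not run. They gave 2152 genes in dividing radial glia-like cells, *Nelfe* 0.18 from radial glia-like cells to nIPC and, in dividing nIPC, *Nelfa* 0.014 and *Nelfb* 0.063. There *Nelfa* also had 0.0098 with no filter and 0.018 without doublets, and *Supt5* −0.072 with library totals alone and −0.043 with over 1000 genes per cell.

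Leaving out 1 library gave 1 to 3 members from radial glia-like cells to nIPC, 2 to 3 from nIPC to neuroblasts, 0 to 1 in each contrast of immature granule neurons and 1 to 3 in dividing radial glia-like cells. The genes called ran from 2983 to 5507 (nIPC to neuroblasts), 136 to 801 and 655 to 1721 (immature granule neurons against neuroblasts and nIPC), 3061 to 4648 (dividing nIPC) and 2727 to 3880 (dividing radial glia-like cells). *Supt6* ran from −0.064 to 0.034 from radial glia-like cells to nIPC, *Nelfa* from −0.022 to 0.045 in dividing nIPC, and *Supt5* from −0.076 to 0.086 from nIPC to neuroblasts, −0.35 to 0.24 and −0.26 to 0.32 in immature granule neurons and −0.080 to 0.13 in dividing nIPC. With library totals alone the share of higher genes among those called went from 70.8% to 87.7% and from 47.8% to 61.7% in immature granule neurons against neuroblasts and nIPC, and from 48.2% to 38.2% in dividing nIPC.

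Members past 1.5-fold in P7_L7_Nestin became 1 in thinned radial glia-like cells, 0 in nIPC from clusters or thinned, and 0 in microglia from clusters, with over 1000 genes or with TMM. In P7_L7_Emx1 they became 1 in microglia when thinned or without doublets. In immature granule neurons they went from 1 to 5 (thinned), 2 (without doublets) and 3 (over 1000 genes) in P7_L7_Nestin and from 2 to 5 (thinned) and 0 (over 1000 genes) in P7_L7_Emx1. Thinned astrocytes went from 0 to 1 in both mutants, and pyramidal neurons from 0 to 1 in P7_L7_Nestin (thinned) and to 2 (thinned) or 1 (without doublets) in P7_L7_Emx1. The causes of these changes were not tested beyond fewer cells, UMIs or genes entering each. Of the single values of members, 338 in class contrasts and 513 ratios stayed on their side of the threshold or within counting error, 42 calls were lost, 9 were gained, 17 directions changed and 19 ratios moved.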
